A study of Mus musculus with 10 samples.

Results

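Of the nuclear genes of respiratory complexes III to V that could be tested in αTC1 cells, 23 of 49 were lower and 3 were higher after 48 h in enzalutamide, most of them by small amounts, against 18.8% lower and 19% higher among all genes tested. Of the 23 lower members 11 were genes of the ATP synthase, out of 17 tested members whose symbol began with Atp5. Of the 3 higher members 1, Cox6a2, was tested only because of its enzalutamide libraries. The group comprised every row of the count table whose symbol began with Uqcr, Atp5 or Cox and a digit, together with Cyc1 and Cycs, and without entries marked -ps. These were 54 of 33212 genes. αTC1 is a mouse line of tumour origin that models the pancreatic α cell, the source of glucagon. It was grown in DMEM with 1 g/L glucose and 10% FBS and exposed for 48 h to 10 μM enzalutamide, an antagonist of the androgen receptor, or to the solvent DMSO, with 5 libraries of poly(A) RNA in each group. By its title the series concerns metabolic change during the making of β cells out of α cells. The labels call the libraries biological replicates without saying whether the cultures were separate, so that the p-values cover variation among these libraries, which may be technical. All cells are one tumour line, and fewer cells of a type and less RNA per cell cannot be told apart in such bulk samples.

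Complex III passes electrons from ubiquinol to cytochrome c, complex IV passes them on to oxygen, and both pump protons across the inner mitochondrial membrane. Complex V, the ATP synthase, lets protons flow back through a ring of c subunits in its membrane-bound Fo sector and uses this rotation to make ATP in its F1 head. Most subunits are encoded in the nucleus, and a few of the core subunits in mitochondrial DNA. In islet endocrine cells ATP made in this way is part of the coupling between nutrients and hormone secretion.

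The c subunit of the ATP synthase ring is encoded by 3 genes whose mature proteins are the same and whose mitochondrial targeting sequences differ. Because all 3 were measured well and differed in their response, 90 bases of each coding sequence within the part for the mature protein are shown, from GENCODE M21 transcripts on GRCm38. They are bases 274 to 363 of the Atp5g1 coding sequence (chromosome 11), 304 to 393 of Atp5g2 (chromosome 15) and 289 to 378 of Atp5g3 (chromosome 2). Capitals mark positions at which the 3 genes are not all the same.
Atp5g1: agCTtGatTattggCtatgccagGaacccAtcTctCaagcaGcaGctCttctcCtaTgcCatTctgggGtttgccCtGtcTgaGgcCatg
Atp5g2: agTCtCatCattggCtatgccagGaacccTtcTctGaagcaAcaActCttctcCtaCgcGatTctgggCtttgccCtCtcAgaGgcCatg
Atp5g3: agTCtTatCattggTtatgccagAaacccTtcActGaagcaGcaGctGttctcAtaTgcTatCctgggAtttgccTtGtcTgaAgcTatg
Over the last 225 bases of the coding sequences 168 were identical in all 3 genes. Along the whole coding sequence Atp5g1 and Atp5g2 were 78.7% identical, with a longest shared run of 20 bases. For Atp5g1 and Atp5g3 these values were 72.8% and 11 bases, and for Atp5g2 and Atp5g3 72.6% and 8 bases. How the authors treated reads that map to several places is not given in the sources used here. Counts of such copies, and of members with processed pseudogenes, are therefore less certain than others.

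Library totals were 59557697 to 68603842 counts, and levels are given as CPM, counts relative to the scaled library total. A gene with 0 counts could lie at up to 3 counts, or 0.044 to 0.0497 CPM, for counting error only. The line carried its α cell label in both groups: all 8 α cell markers were above 1 CPM in both groups, among them the glucagon gene Gcg, and their summed level was 19392 to 20631 CPM in DMSO and 11431 to 12737 CPM in enzalutamide. Most of this sum was Gcg, at a mean of 15269 CPM in DMSO and 8466 CPM in enzalutamide. The means of Irx1 (153 and 156 CPM), Irx2 (187 and 189 CPM) and Pcsk2 (2224 and 2270 CPM) were not lower in enzalutamide. The part of this difference in the results was not tested. Of 6 β cell markers only 1 (Mafa) exceeded 1 CPM, with sums of 1.01 to 2.84 CPM over all libraries, Ins1 and Pdx1 had 0 counts, and the δ cell, PP cell and blood markers were at or near 0 (Sst, Ppy and Ptprc had 0 counts). Summed levels were 4.72 to 8.09 CPM for 4 acinar markers, 8.49 to 11.9 CPM for 2 duct markers and up to 1.75 CPM for mesenchyme and endothelium, and Pnlip, Prss2, Krt19 and Cdh5 among them had 0 counts.

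Enzalutamide library 5 stood apart for these genes. It had the lowest value of all 10 libraries in 40 of the 49 tested members (81.6%), against 15.1% of all genes tested. Members held 1.06% of the counts in this library, 1.18 to 1.25% in the other enzalutamide libraries and 1.24 to 1.33% in DMSO. Members also had short transcripts, with a median annotated length of 745 bases against 2676 for all genes tested. Among genes at 50 CPM or more with transcripts under 1000 bases this library was lowest for 72.3% of 292 genes, and for 24 of 26 members. Among those of 1000 bases or more it was lowest for 17.8% of 4736 genes, and for 11 of 12 members. The part of this library's composition in the results was not tested. Counts by group of genes are therefore given with and without it.

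Of the 49 tested members 23 were lower in enzalutamide and 3 were higher by edgeR's quasi-likelihood test with a Benjamini-Hochberg adjusted p under 0.05 over all genes, and 23 did not pass. Of the 14156 genes tested 37.8% passed, 18.8% lower and 19% higher, against 46.9% and 6.12% of the members. The median log2 fold change of members, enzalutamide against DMSO, was -0.13, against 0.01 for all genes. In 10 members all 5 enzalutamide values lay below all 5 DMSO values, as they did in 13.7% of all genes, and in 0 members did they all lie above, against 13.1% of all genes. Members are abundant transcripts, and small differences pass more often at high counts. Of genes with a mean of 50 CPM or more, a level chosen after the data were seen, 56.2% passed, 34.7% lower and 21.6% higher. Of the 38 members at that level 22 were lower and 2 higher. The median log2 fold change there was -0.14 for members and -0.03 for all genes. All enzalutamide values lay below all DMSO values in 9 of these 38 members and in 1328 of the 5045 genes, a share no higher in members. They all lay above in 0 of these members and in 802 of the genes. Of the genes at 50 CPM or more with transcripts under 1000 bases, 36% of 292 were lower, with a median log2 fold change of -0.083. Among them 13 of 26 members were lower, with a median of -0.124. Of those of 1000 bases or more, 34.6% of 4736 genes were lower (median -0.031), and 9 of 12 members (median -0.146). The part of transcript length in the results was not tested. Without enzalutamide library 5, 22 members were lower and 3 higher, and the median of all members was -0.10. In that setting 36.6% of all genes passed, 18.4% lower and 18.3% higher. The called members other than Cox6a2 differed by 8.73% to 27% of their DMSO level. The plot of fold changes by complex shows this narrow range.

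**Figure D1:**
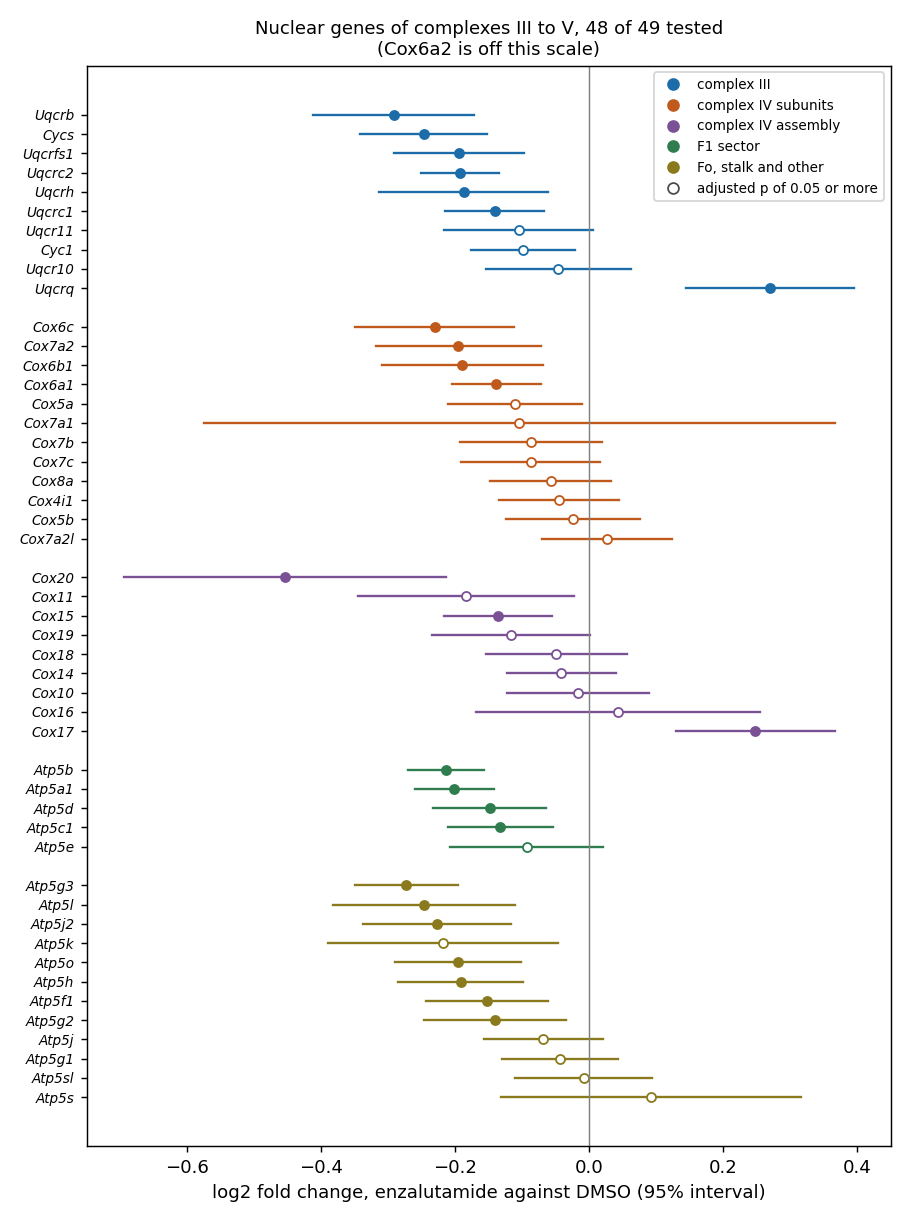
Log2 fold change (enzalutamide against DMSO, horizontal axis) with 95% interval for the tested members other than Cox6a2 (1.79, off the scale), grouped by complex, with filled points for an adjusted p under 0.05. Most points lie left of 0, and the filled points right of 0 are those of Uqcrq at 0.27 and Cox17 at 0.25.

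Levels per kilobase of annotated transcript spanned a wide range in DMSO. Atp5b, the catalytic β subunit of the ATP synthase, was highest at 1397 CPM per kilobase, followed by Cox6a1 at 1065, Cox4i1 at 746, Atp5g3 at 672 and Atp5g1 at 628. The subunits of complex III and cytochrome c lay between 116 (Uqcrc2) and 329 (Uqcr11) CPM per kilobase. Assembly factors of complex IV lay lower, between 8.53 (Cox10) and 134 (Cox17). The muscle-type paralogues Cox7a1 and Cox6a2 were at 4.11 and 0.244 CPM per kilobase. The remaining tissue-specific paralogues were not tested: Cox4i2, Cox6b2 and Cox7b2 had between 0 and 12 counts in a library, and Cox8b and Cox8c had 0 in all 10.

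In complex III and cytochrome c, 6 of 10 members were lower and 1 was higher, and the same counts were obtained without enzalutamide library 5. The median log2 fold change was -0.16, and -0.12 without that library. The shares, 60% lower and 10% higher, compare with 18.8% and 19% of all genes tested. Of genes at 50 CPM or more 34.7% were lower and 21.6% higher. The lower members were the core protein genes Uqcrc1 (-0.14) and Uqcrc2, the Rieske iron-sulfur protein gene Uqcrfs1 (-0.19) and the small subunit gene Uqcrb. The hinge protein gene Uqcrh (-0.19) and Cycs were lower too. Uqcrh was called in 15 of 21 settings, and among the losses its adjusted p was 0.0554 without DMSO library 1, 0.087 without DMSO library 3, 0.0527 without DMSO library 4 and 0.0778 without enzalutamide library 1. Uqcrc2 was at 222, 216, 226, 219 and 214 CPM in DMSO libraries 1 to 5 and at 195, 194, 192, 197 and 184 CPM in enzalutamide libraries 1 to 5. Every enzalutamide value lay below every DMSO value, and the spread within groups was narrow (log2 fold change -0.19, SE 0.0296, adjusted p = 6.32e-05). Cycs, the somatic form of cytochrome c, the mobile carrier between complexes III and IV, was at 527, 464, 553, 522 and 494 CPM in the DMSO libraries and 426, 451, 452, 446 and 383 CPM in those given enzalutamide. Its groups also did not overlap, with DMSO library 2 the lowest of its group and enzalutamide library 5 the lowest of all (log2 fold change -0.25, SE 0.0485, adjusted p = 0.000612).

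Uqcrb and Uqcrq, both encoding small subunits of complex III next to cytochrome b, went opposite ways. Uqcrb was at 118, 110.4, 133, 119 and 124 CPM in solvent and 98.3, 111, 98.3, 103 and 83.8 CPM under enzalutamide. The groups overlapped through DMSO library 2 and enzalutamide library 2 (log2 fold change -0.29, SE 0.061, adjusted p = 0.00106). Uqcrq was at 109.9, 107, 124, 113 and 109 CPM with DMSO alone and 144, 155, 132, 137 and 113 CPM with enzalutamide. Enzalutamide libraries 1 to 4 lay above every DMSO library, and library 5 lay within the DMSO range (log2 fold change 0.27, SE 0.064, adjusted p = 0.00279). Without library 5 the log2 fold change of Uqcrq was 0.33. The remaining members did not pass. They were Cyc1, the cytochrome c1 gene (-0.10, adjusted p = 0.0627), and 2 small subunit genes. The latter were Uqcr11 (-0.10, adjusted p = 0.165) and Uqcr10 (-0.05, adjusted p = 0.565). Cyc1 was called in 6 of 21 settings. Uqcr11 was called in 2, among them the removal of GC and length trends (-0.17, adjusted p = 0.00309).

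**Figure D2:**
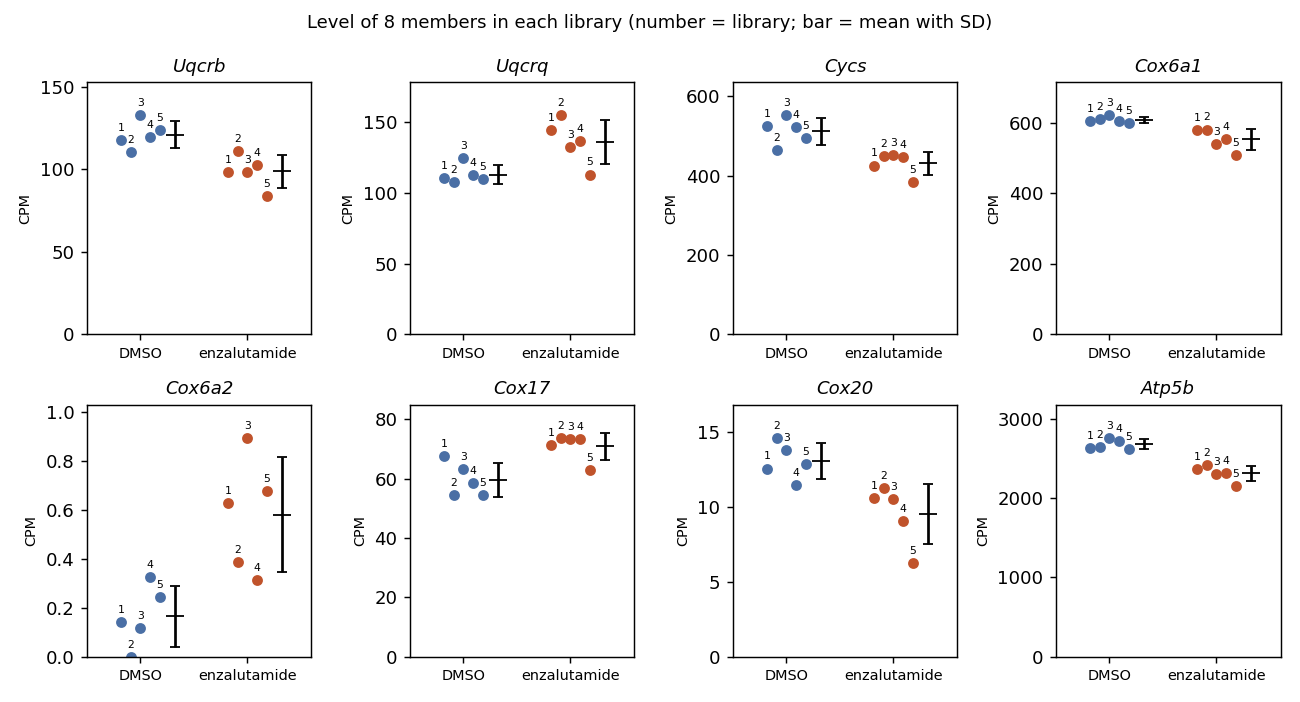
CPM of 8 members in each of the 5 DMSO and 5 enzalutamide libraries, with the group mean and SD. Uqcrb, Cycs, Cox6a1, Cox20 and Atp5b are lower in enzalutamide, Uqcrq, Cox17 and Cox6a2 are higher, and enzalutamide library 5 is the lowest of its group in each panel except that of Cox6a2.

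Of 13 tested subunit genes of complex IV, among 18 in the table, 4 were lower and 1 was higher, with or without enzalutamide library 5. Their median log2 fold change was -0.09, and -0.03 without that library. The shares were 30.8% lower and 7.69% higher, against 18.8% and 19% of all genes tested. Of all genes at 50 CPM or more 34.7% were lower and 21.6% higher, so that the lower count is no result about these subunits. The lower count was 2 without DMSO library 3 or 4 or without a filter on low counts, and the higher count was 0 without DMSO library 3, without enzalutamide library 3 or without that filter. Cox6a1, the widely expressed form of subunit 6a and the highest of these genes per kilobase, was at 605, 610.2, 621, 605 and 599.6 CPM in the DMSO libraries and 580.2, 581, 539.9, 555 and 508 CPM in those given enzalutamide. All DMSO values were within a narrow range above all enzalutamide values (log2 fold change -0.14, SE 0.034, adjusted p = 0.00372). Cox6c, which encodes another structural subunit, was at 252.1, 218, 262, 246 and 231 CPM in solvent and 204, 224, 219, 211 and 173 CPM under enzalutamide. DMSO library 2 lay inside the enzalutamide range, so the groups overlapped (log2 fold change -0.23, SE 0.0605, adjusted p = 0.00594). Cox7a2 (-0.19, adjusted p = 0.0208) and Cox6b1 (-0.19, adjusted p = 0.0217), for subunits 7a and 6b, were also lower with overlapping groups. Neither call held without DMSO library 3 (adjusted p = 0.0726 for Cox7a2 and 0.0708 for Cox6b1), without DMSO library 4 (0.0535 and 0.0582) or without a filter on low counts (0.0634 and 0.071).

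The remaining 8 tested complex IV subunit genes did not pass, with log2 fold changes from -0.11 (Cox5a) to 0.03 (Cox7a2l). Cox4i1, the main form of subunit 4, had a 95% interval of -0.13 to 0.05. That of Cox5b, the gene of the zinc-binding subunit, was -0.12 to 0.08, and that of Cox8a, the widely expressed form of subunit 8, -0.15 to 0.03. These intervals exclude a fall as large as that fitted for Cox6c. After removal of GC and length trends Cox4i1 passed, at a log2 fold change of -0.11 (adjusted p = 0.00788). So did Cox8a, at -0.12 (adjusted p = 0.0069). Cox6a2, the heart and muscle form of subunit 6a, was the subunit gene called higher, at very low levels: 9, 0, 8, 22 and 16 counts in DMSO libraries 1 to 5, and 38, 26, 61, 21 and 44 in enzalutamide libraries 1 to 5. The groups overlapped between DMSO library 4 and enzalutamide library 4. The filter on low counts asked for about 0.151 CPM in 5 libraries, which Cox6a2 reached in 2 DMSO and all 5 enzalutamide libraries. It was thus tested only through the group in which it was higher, so that its fitted log2 fold change of 1.79 (SE 0.568) is a description and its call carries no support. It was the one member tested in this way.

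Assembly factors named Cox had 2 of 9 members lower and 1 higher, again with or without enzalutamide library 5. Their median log2 fold change was -0.05, and -0.015 without that library. The shares, 22.2% lower and 11.1% higher, lie near or below those of all genes tested, 18.8% and 19%. Cox17, the copper chaperone that supplies complex IV with copper, was at 67.7, 54.6, 63.2, 58.6 and 54.5 CPM with DMSO alone and 71.2, 73.9, 73.4, 73.3 and 62.8 CPM with enzalutamide. Enzalutamide libraries 1 to 4 lay above every DMSO library, and library 5 lay below DMSO libraries 1 and 3 (log2 fold change 0.25, SE 0.0607, adjusted p = 0.00346). Cox15, needed for haem a synthesis, was lower (-0.14, adjusted p = 0.015).

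Cox20, a chaperone of the mitochondrially encoded Cox2 protein, was at 12.5, 14.6, 13.8, 11.5 and 12.8 CPM in the DMSO libraries and 10.6, 11.2, 10.5, 9.02 and 6.26 CPM in those given enzalutamide, without overlap (log2 fold change -0.45, SE 0.123, adjusted p = 0.00706). However, 91.1% of its annotated exon bases lie under Hnrnpu on the opposite strand, a gene of an abundant nuclear RNA-binding protein with 933955 counts over the 10 libraries against 7420 for Cox20. Hnrnpu was itself lower (1514 ± 16.4 CPM in DMSO against 1327 ± 30.9 CPM; log2 fold change -0.19, adjusted p = 6.34e-06). The strand setting of the counting is not given in the sources used here. Reads of these genes may not have been told apart. The same limit holds for Cox11, which did not pass (-0.18, adjusted p = 0.0918) and shares 48.3% of its exon bases with Tom1l1 on the opposite strand (-0.33, adjusted p = 0.00898). Cox16 (0.04) shares 56.8% of its exon bases with Gm20498 on the same strand, where strand cannot separate reads.

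Complex V, taken as all tested Atp5 genes, had 11 of 17 members lower and 0 higher, with a median log2 fold change of -0.15. Without enzalutamide library 5, 10 were lower and the median was -0.11. Lower were 64.7% of these members, against 18.8% of all genes tested and 34.7% of genes at 50 CPM or more. Higher were 19% and 21.6% of those genes. In the F1 sector 4 of 5 (80%) were lower, with or without enzalutamide library 5. The F1 median was -0.15 with that library and -0.11 without it. Atp5b, the β subunit that carries the catalytic sites, was at 2634, 2646, 2760.1, 2719 and 2621 CPM in solvent and 2362, 2414, 2296, 2316 and 2156 CPM under enzalutamide. The groups were far apart relative to their spread, and the mean fell by 13.7% (log2 fold change -0.21, SE 0.0287, adjusted p = 1.53e-05). Atp5a1, its α subunit partner in the F1 ring, fell from 1510.3 ± 45.8 to 1314 ± 50.4 CPM (SD, n = 5 each; log2 fold change -0.20, adjusted p = 4.38e-05), also without overlap. Atp5c1, the γ shaft that turns inside the ring (-0.13, adjusted p = 0.0146), and Atp5d, the δ subunit at its foot (-0.15, adjusted p = 0.0113), were lower too. Atp5e, the small ε subunit, did not pass (-0.09, adjusted p = 0.237).

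In the Fo sector, the peripheral stalk and other Atp5 genes, 7 of 12 (58.3%) were lower, and 6 without enzalutamide library 5. Of all genes tested 18.8% were lower, and of those at 50 CPM or more 34.7%. The median log2 fold change of these 12 members was -0.17, and -0.13 without that library. Of the stalk genes Atp5o, which encodes the OSCP subunit (-0.20, adjusted p = 0.00359), Atp5h of subunit d (-0.19, adjusted p = 0.00385) and Atp5f1 of subunit b (-0.15, adjusted p = 0.0155) were lower, and Atp5j of factor 6 did not pass (-0.07). Of the small membrane subunits near the dimer interface Atp5j2 (-0.23) and Atp5l (-0.25) were lower, and Atp5k (-0.22, adjusted p = 0.0615) did not pass. Atp5s and Atp5sl did not pass either, with 0.09 and -0.01. Neither is a core subunit of the synthase, and the human counterpart of Atp5sl is known for complex I assembly.

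**Figure D3:**
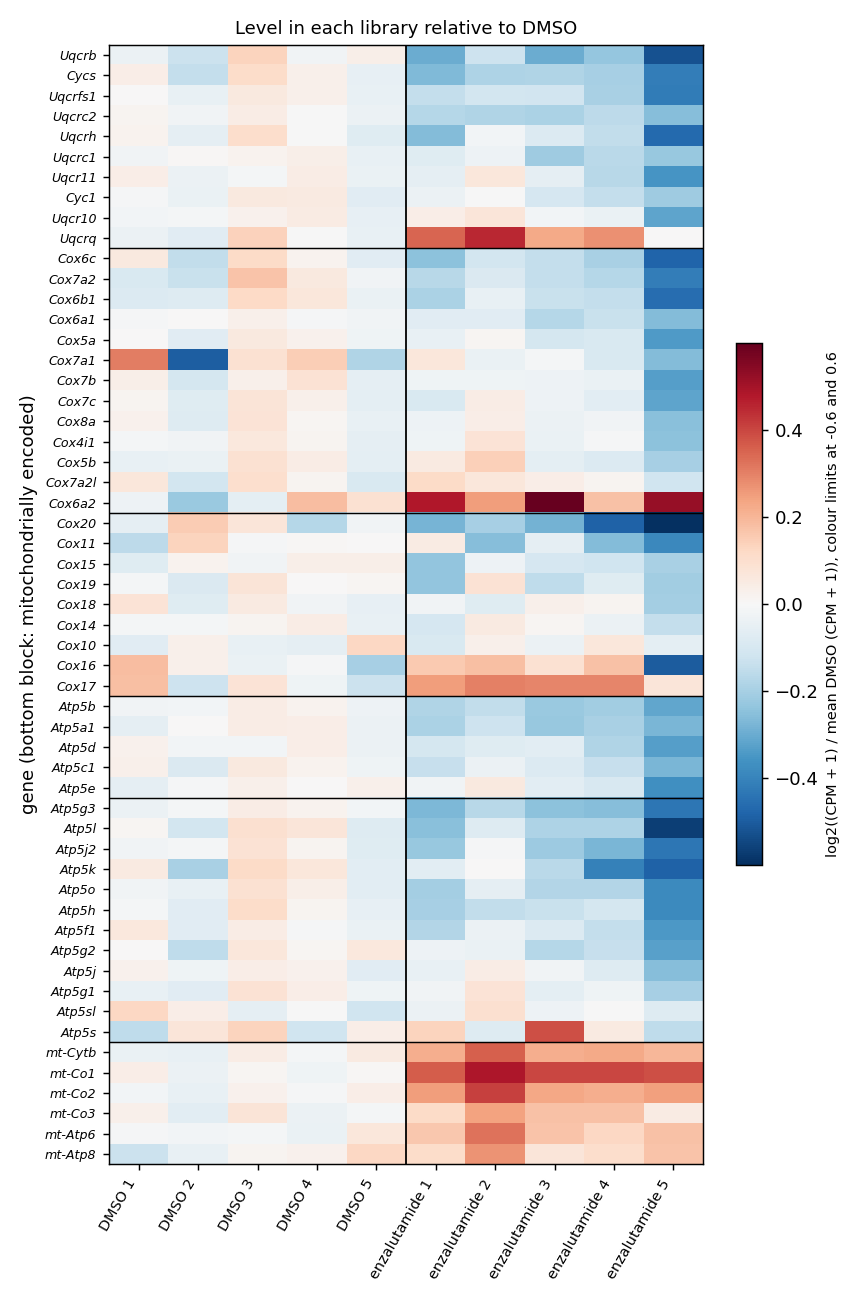
Colour map of log2 CPM (1 added) of each tested member, and of the 6 mitochondrially encoded partners in the bottom block, in each of the 10 libraries relative to the DMSO mean. Enzalutamide library 5, the last column, has the lowest CPM in 40 of 49 members, and the mitochondrially encoded genes are higher in the enzalutamide columns.

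The c subunit genes differed from each other in their response. Atp5g3 was at 468, 475, 495, 486 and 475 CPM with DMSO alone and 398, 427, 404, 401 and 355 CPM with enzalutamide, without overlap (log2 fold change -0.27, SE 0.0391, adjusted p = 2.98e-05). Atp5g1 was at 363, 357, 398, 385 and 367 CPM in the DMSO libraries and 368, 396, 359, 367 and 325 CPM in those given enzalutamide, with groups that overlapped almost throughout (log2 fold change -0.04, 95% interval -0.13 to 0.04, adjusted p = 0.49). The log2 fold change of Atp5g1 was -0.0053 without enzalutamide library 5. After removal of GC and length trends it was -0.084 and passed (adjusted p = 0.0421). Atp5g2, the least abundant of the 3 per kilobase, was at 109 ± 6.55 CPM in solvent and 98.9 ± 8.06 CPM under enzalutamide (SD, n = 5 each), which passed narrowly (log2 fold change -0.14, adjusted p = 0.0494) and was called in 11 of 21 settings, not without enzalutamide library 5 (adjusted p = 0.114).

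Within a library the ratio of Atp5g1 to Atp5g3 does not depend on scaling. Its log2 value was -0.37, -0.41, -0.31, -0.34 and -0.37 in DMSO libraries 1 to 5 and -0.11, -0.11, -0.17, -0.13 and -0.13 in enzalutamide libraries 1 to 5. All enzalutamide ratios lay above all DMSO ratios, with a difference of 0.23 (SE 0.02; two-sided exact permutation p = 0.00794, the smallest possible with groups of this size; 0.0238 adjusted over 6 testable pairs of 11 listed). The difference was 0.13 for Atp5g2 against Atp5g3 (exact p = 0.0159, adjusted 0.0238) and 0.10 for Atp5g1 against Atp5g2 (exact p = 0.0317, adjusted 0.0381), both with overlapping groups. The last of these no longer passed when any 1 of 8 of the 10 libraries was left out. Of all c subunit counts Atp5g3 held 49.9 ± 0.729% in DMSO and 46.2 ± 0.515% in enzalutamide, Atp5g1 38.8 ± 0.523% and 42.3 ± 0.326%, and Atp5g2 11.3 ± 0.517% and 11.5 ± 0.392% (SD, n = 5 each).

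**Figure D4:**
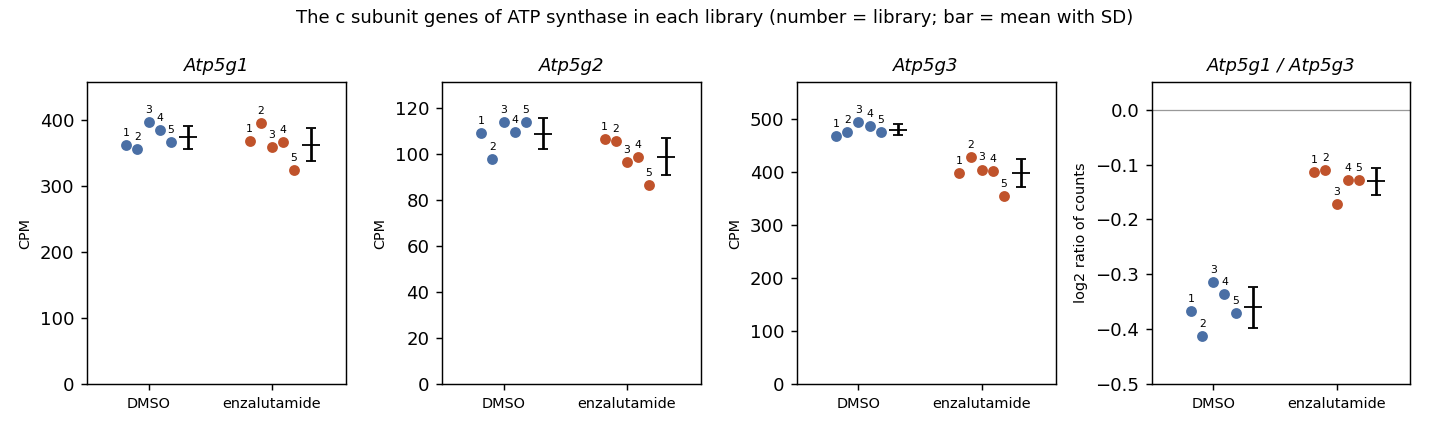
CPM of the c subunit genes Atp5g1, Atp5g2 and Atp5g3 and the log2 ratio of Atp5g1 to Atp5g3 counts in each numbered library, with bars for mean and SD (n = 5). The enzalutamide ratios, from -0.17 to -0.11, all lie above the DMSO ratios, from -0.41 to -0.31.

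Among the other pairs Cox7a2 differed from Cox7a2l, which encodes a related protein that joins complexes III and IV in supercomplexes. The level of Cox7a2l averaged 82.3 ± 5.42 CPM in DMSO and 83.8 ± 5.03 CPM under enzalutamide, and the log2 ratio of Cox7a2 to Cox7a2l was -0.12 in DMSO and -0.35 in enzalutamide, a difference of -0.22 (exact permutation p = 0.0159, adjusted 0.0238) with overlap in DMSO library 1. The log2 ratio of Cox6a1 to Cox6a2 differed by -2.54, a description only, since Cox6a2 passed the filter through its enzalutamide libraries. It rested in part on DMSO library 2, where Cox6a2 had 0 counts, and the difference was -1.60 without that library and -1.70 with 5 added to each count in place of 0.5. For Cox7a1 against Cox7a2 the difference was 0.16 (SE 0.229; exact permutation p = 0.548), which leaves room for a difference in either direction. With the p-values adjusted over the 5 pairs without Cox6a2, a choice made after the data were seen, the 4 other ratios that passed still did, at 0.0265 to 0.0397. The remaining 5 listed pairs had a paralogue with too few counts to test.

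The mitochondrially encoded partners of these subunits moved the other way: 6 of 6 were higher in enzalutamide, with or without enzalutamide library 5, 4 of them without overlap. Of all genes tested 19% were higher, and of those at 50 CPM or more 21.6%. All 6 lie on the same mitochondrial DNA, and whether they varied separately was not tested. The complex IV genes mt-Co1, mt-Co2 and mt-Co3 had log2 fold changes of 0.41 (adjusted p = 3.24e-10), 0.27 (adjusted p = 3.16e-06) and 0.15 (adjusted p = 0.0014). The cytochrome b gene mt-Cytb of complex III had 0.25 (adjusted p = 4.25e-06), and the ATP synthase genes mt-Atp6 and mt-Atp8 had 0.19 and 0.15 (adjusted p = 0.000141 and 0.0108). Nuclear copies of mitochondrial DNA make these counts less certain.

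Summed by complex, the nuclear genes of complex V held 0.736 ± 0.019% of counts in DMSO and 0.662 ± 0.0336% in enzalutamide, with no overlap (SD, n = 5 each). Within this sum the F1 sector held 0.489 ± 0.0113% and 0.437 ± 0.0177%, without overlap. The Fo sector, stalk and other genes held 0.247 ± 0.0084% and 0.225 ± 0.0162%, with overlap. The nuclear genes of complex III and cytochrome c held 0.214 ± 0.00793% and 0.198 ± 0.0131%. Those of complex IV subunits held 0.289 ± 0.0105% and 0.277 ± 0.0202%. The groups overlapped for complex III and for complex IV subunits. The mitochondrially encoded genes of complexes III, IV and V went from 0.737% to 0.895%, from 2.46% to 3.21% and from 0.486% to 0.564%, each without overlap between groups. As a share of DMSO, the enzalutamide means were 0.9 for nuclear and 1.16 for mitochondrially encoded complex V genes.

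**Figure D5:**
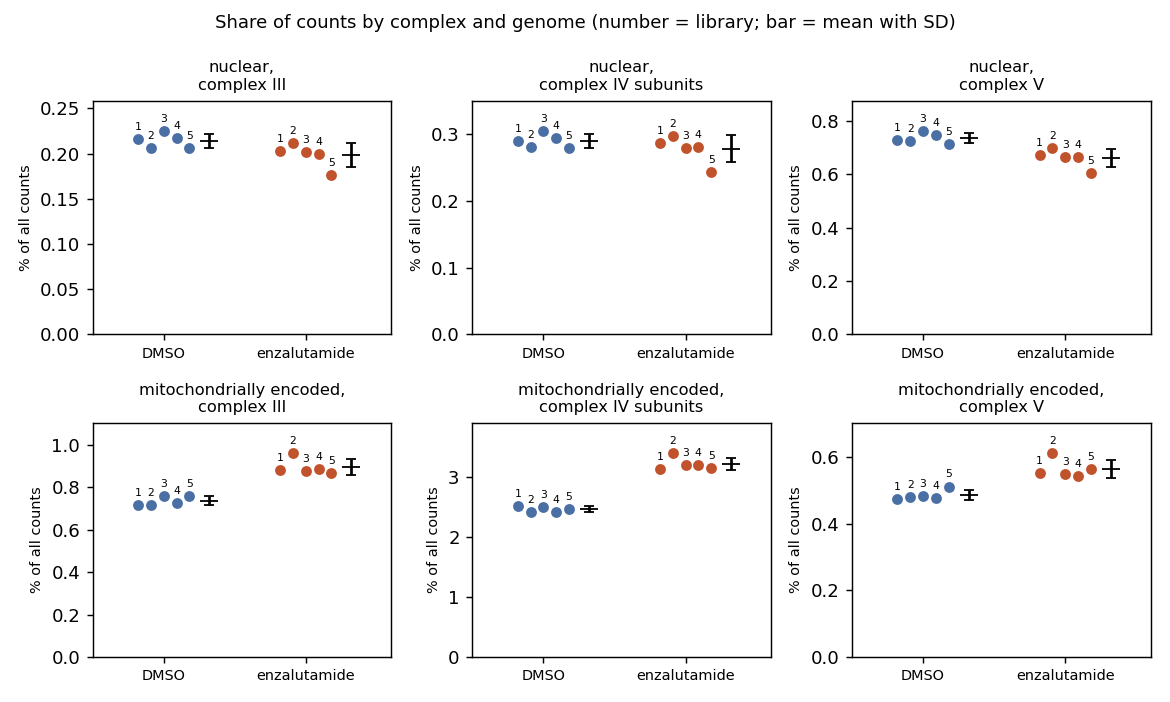
Percent of all counts held by nuclear (top) and mitochondrially encoded (bottom) genes of complexes III, IV and V in each numbered library, with bars for mean and SD (n = 5). Nuclear complex V is lower in all enzalutamide libraries than in any DMSO library, and the mitochondrially encoded genes of all 3 complexes are higher.

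Other genes of the pathway were listed by function. Of 5 tested complex III assembly genes 1 was lower (Uqcc1, -0.18, adjusted p = 0.00143) and 0 higher, and without enzalutamide library 5 there was 1 of each. Of 17 tested complex IV assembly factors and further subunits 5 were lower and 3 higher, with or without that library, or 29.4% and 17.6% against 18.8% and 19% of all genes tested. The lower ones were led by Higd1a, a hypoxia-inducible partner of complex IV, at 108 ± 9.69 CPM with DMSO alone and 76.4 ± 3.23 CPM with enzalutamide (log2 fold change -0.50, adjusted p = 9.31e-07), and included Cmc2 (-0.26, adjusted p = 0.00267). Lrpprc, which stabilises mitochondrial mRNAs, was higher (0.13, adjusted p = 0.000971). Of 4 tested complex V assembly and inhibitor genes 1 was higher, the F1 assembly factor gene Atpaf1 (0.13, adjusted p = 0.032), which did not pass without enzalutamide library 5 (adjusted p = 0.0824) or when any 1 of 6 other libraries was left out. Of 6 tested genes of complex II, which has no mitochondrially encoded subunit, 2 were lower: Sdha, its flavoprotein (-0.15, adjusted p = 0.000346), and Sdhc, a membrane anchor (-0.10, adjusted p = 0.0455), the latter not without enzalutamide library 5 (adjusted p = 0.1) or when any 1 of 5 other libraries was left out. Without enzalutamide library 5, 1 complex II gene was lower and 1 higher. The share of complex II genes lower, 33.3%, compares with 18.8% of all genes tested and 34.7% of genes at 50 CPM or more. This count is therefore no result about complex II. The complex III assembly list (20% lower) and the complex V list (25% higher) are likewise near all genes tested, with 18.8% lower and 19% higher.

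Of 13 tested regulators of respiratory chain genes 3 were lower and 1 was higher, or 23.1% and 7.69%, and without enzalutamide library 5 there were 3 and 2. The share lower is near the 18.8% of all genes tested, and the share higher is below the 19% of all genes, so that the counts are no result about the regulators. Ppargc1a, the coactivator PGC-1α, was at 207, 216, 211, 211 and 222 CPM in the DMSO libraries and 261, 268, 292, 273 and 297 CPM in those given enzalutamide, without overlap (log2 fold change 0.38, adjusted p = 4.09e-07). Nrf1, the nuclear respiratory factor that binds many respiratory gene promoters, was lower (-0.20, adjusted p = 0.00365), as were Gabpb1, a subunit of the ETS-family factor GABP (-0.16, adjusted p = 0.0136), and the PGC-1-related coactivator gene Pprc1 (-0.10, adjusted p = 0.0343). Tfam, the mitochondrial DNA packaging factor, did not pass (-0.02, 95% interval -0.09 to 0.06).

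Promoters are shown for 3 members that were lower without overlap between groups, 1 from each complex or its carrier, as 120 bases upstream of the RefSeq start on GRCm38.p6, all on the minus strand: Cox6a1 at chr5:115348959-115349078, Cycs at chr6:50566570-50566689 and Atp5g3 at chr2:73911327-73911446. Capitals mark matches, on either strand, to GCGCA and GCGC separated by any 1 base (a core of the NRF1 motif), CCGGAAG (ETS factors such as GABP) or AAGATGGCG (YY1), which do not overlap one another in these stretches.
Cox6a1: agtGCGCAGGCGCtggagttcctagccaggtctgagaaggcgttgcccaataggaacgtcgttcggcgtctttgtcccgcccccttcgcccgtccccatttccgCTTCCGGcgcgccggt
Cycs: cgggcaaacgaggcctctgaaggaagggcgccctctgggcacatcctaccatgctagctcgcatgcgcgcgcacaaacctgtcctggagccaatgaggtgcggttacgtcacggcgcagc
Atp5g3: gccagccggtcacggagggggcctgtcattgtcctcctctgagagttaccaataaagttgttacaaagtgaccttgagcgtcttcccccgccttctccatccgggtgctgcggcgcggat
RefSeq windows of 300 bases, from 250 before to 50 after a start, were matched for 39 of the 54 members (43 windows). Of 40 windows of tested members 55% held at least 1 of the motifs, against 26.4% of 12750 windows of all genes tested. The NRF1 core was in 20% against 9.66%, the ETS motif in 40% against 16.9%, and the YY1 motif in 7.5% against 2.82%. Of matched members that were lower 13 of 18 had a motif, and of the other tested members 8 of 18. In the Cycs window none of the 3 letter strings was found, and the Atp5g3 window held an NRF1 match downstream of the start, outside the bases shown. A match of letters is a description and not a bound site.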

How the data were processed

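Poly(A) RNA of αTC1 cells was sequenced in 5 DMSO and 5 enzalutamide libraries, grouped by their titles and treatments. Per the submitters' processing notes HISAT2, StringTie, DESeq2 and mm10 were used, with no version or role stated. For strandedness and multiply mapped reads the setting is not given in the sources used here. The authors deposited whole-number counts per Ensembl gene, and a second table with a signal scaled by library. In that deposited signal, multiplication by DESeq2-type size factors returned the counts to within 0.01 for 14037 of 14037 matched tested genes. All columns were matched to samples by name, and 0 were left unused.

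The tools were edgeR 4.0.16 and limma 3.58.1 in R 4.3.3. The filterByExpr filter left 14156 genes, and TMM factors scaled the libraries. The groups were compared by edgeR's quasi-likelihood test with no covariate, and p-values were adjusted by Benjamini and Hochberg over all genes with a threshold of 0.05. SEs were derived from the fold change and the F statistic, and 95% intervals are normal. Values after ± are SDs (n = 5). The biological coefficient of variation came to 8.39%. Libraries of a group differed by more than sampling noise in every pair (chi-square over its degrees of freedom 8.98 to 35.3). Same-numbered libraries did not deviate together (correlations -0.01 to 0.05), so the numbers were not used to pair them. Ratios of paralogues were log2 of counts plus 0.5, compared by exact two-sided permutation. The pipeline was tested on simulated data.

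Positions, lengths and coding sequences came from GENCODE M21 on GRCm38, where 96.3% of identifiers were found. Lengths are those of the shortest well-supported principal transcript of a gene. Members and lists were chosen with earlier results of these data known. Named in each group were up to 4 members with the lowest adjusted p, those against the group, testable paralogues and the highest per kilobase, and up to 3 passing genes of each other list. Other members, mt-Co3, mt-Atp6, mt-Atp8, Pprc1, Tfam, Hnrnpu, Tom1l1, Gm20498 and the markers were added beside that rule. Alternatives were other scalings, filters and tests (DESeq2 1.42.0, limma-voom, limma-trend on the scaled signal with a pseudocount of 1), the replicate block, pseudogene counts added to their parent genes, removal of GC and length trends, and leaving out each library.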

Additional observations from a re-analysis of the deposited data

Results flagged for a closer look

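Of 116 sets of 5 values examined, 13 held a library whose gap to the nearest of the other 4 was large against the range of the group, where chance gives about 1 in 20. Enzalutamide library 5 was low for 4 members: Cox7a2 at 56.4 CPM (nearest 67.0), Cox17 at 62.8 CPM (nearest 71.2), Cox7b at 125.1 CPM (nearest 153.3) and Cox8a at 277.9 CPM (nearest 322.9).

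Enzalutamide library 2 was high for the mitochondrially encoded mt-Co2 at 6600 CPM (nearest 5912) and mt-Cytb at 9577 CPM (nearest 8743). In the same library mitochondrially encoded genes of complex III held 0.961% of counts (nearest 0.886%) and those of complex IV 3.39% (nearest 3.19%), and Gabpb1 was high at 45.6 CPM (nearest 40.2). Mitochondrially encoded genes of complex V were high in DMSO library 5, at 0.512% of counts (nearest 0.484%).

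Among the ratios, the log2 ratio of Cox6a1 to Cox6a2 was 16.3 in DMSO library 2 (nearest 12.3), where Cox6a2 had 0 counts. The log2 ratio of Atp5g1 to Atp5g2 was 1.79 in enzalutamide library 1 (nearest 1.89). That of Atp5g1 to Atp5g3 was -0.17 in enzalutamide library 3 (nearest -0.13), which still lay above every DMSO library.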

How the results depend on the processing

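Over 21 settings, the one reported and 20 alternatives, 16 members were lower and 2 (Uqcrq and Cox17) higher in every one, 13 were called in none, and no call changed sign. The count of lower members was 17 with total-count scaling (15.1% of all genes lower), 19 without a filter on low counts (11.9%), 30 with GC and length trends removed (23.5%) and 19 to 28 when 1 library was left out (17 to 18.8%), and higher members were 2 to 3. Lower members gained with GC and length trends removed were Cyc1, Uqcr11, Cox4i1, Cox8a, Atp5g1, Atp5j and Atp5k. With total-count scaling 60.7% of all calls were higher, against 50.3% as reported. By complex, 1 complex IV assembly gene was lower with total-count scaling, and 2 complex IV subunit genes were lower without a filter. The count of complex IV subunit genes higher was 0 without a filter or with a mean CPM of at least 1, where Cox6a2 is lost. Leaving out 1 library gave 2 to 5 lower and 0 to 1 higher complex IV subunit genes. The lowest counts followed the loss of Cox7a2 and Cox6b1 without DMSO library 3 or 4 and of Cox6a2 without DMSO library 3 or enzalutamide library 3. The log2 ratio difference of Atp5g1 to Atp5g2 was 0.074 to 0.12 when 1 library was left out, that of Cox7a1 to Cox7a2 was -0.019 to 0.31, and the adjusted p of the former was above 0.05 in 8 of the 10 cases. Among the genes chosen by the naming rule the direction changed for 2. The log2 fold change of Cox7a1, which passed in none of the settings, ranged from -0.26 to 0.038, the latter without DMSO library 1. That of Cox4i1 ranged from -0.11, with GC and length trends removed, where it passed (adjusted p = 0.00788), to 0.0031 without enzalutamide library 5, and from -0.078 to 0.0031 when 1 library was left out. Cox15, Atp5c1 and Atp5f1 did not pass with total-count scaling and passed in the 20 other settings. The cause of these changes was not tested.

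With the replicate number as a block 24 members were lower and 3 higher, 22 of the lower ones shared with the fit reported, and 2637 and 2659 of all genes were lower and higher. Over 5 pairs the smallest exact p for a paralogue ratio is 0.0625, so a paired permutation test could not pass. Of the 5 numbers 3 had their best match in the same number, as a hint from the data and not the design. Genes such as Cox6a2, at 0.166 CPM in DMSO, are limited by depth.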
